A study of Mus musculus with 6 samples.

Results

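The genes described here are 8 transcription factors of the oligodendrocyte lineage, Olig1, Olig2, Nkx2-2, Nkx6-2, Zfp488, Myrf, St18 and Myt1, among 55450 genes of the GENCODE annotation used. They were chosen by name for their known roles. For each gene, tags were summed within 500 bp of every annotated 5′ end on the strand of the gene, and divided by all tags of the library. The data are cap analysis of gene expression (CAGE), in which sequenced tags begin at the capped end of an RNA and so mark where its transcription started. Nuclear RNA was read in 3 libraries of mouse embryonic stem cells (mESCs, line R08) and in 3 libraries of mOPCs, which here are the line oli-neu. The mESCs were grown without feeder cells in medium with leukemia inhibitory factor and serum. Oli-neu derives from oligodendrocyte precursors immortalised with an activated neu oncogene, and was expanded with thyroid hormones (T3 and thyroxine), bFGF and PDGF-BB. No genotype difference or drug treatment separates the groups beyond the identity of the line and its medium. Each cell type is 1 line, so that the comparison is between lines, and the sources used here do not say whether the 3 libraries came from separate cultures. The p-values measure only the spread between these libraries.

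Oligodendrocytes, the myelinating cells of the central nervous system, arise from neural progenitors through oligodendrocyte precursor cells (OPCs), which divide in response to PDGF, then through committed and newly formed oligodendrocytes to myelinating cells. Olig2 and its neighbour Olig1 are basic helix-loop-helix proteins that specify the lineage and stay on through it. Nkx2-2 and Nkx6-2 are homeodomain proteins, Zfp488 a zinc finger protein that acts with Olig2 in differentiation, and Myrf a membrane-bound protein that cleaves itself to release a factor required for myelin genes. Myt1 and St18 belong to 1 family of zinc finger proteins, Myt1 being known from precursors and St18 from later oligodendrocytes.

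Libraries held between 16657021 and 40928704 tags, and a count of 3 tags in 1 library, taken here as the floor, corresponds to between 0.0733 and 0.180 CPM (tags per 1000000 tags of the library). The windows of 500 bp around annotated 5′ ends held 87.6% to 88.1% of all tags in the mESC libraries and 80.3% to 80.8% in the mOPC libraries. The strongest position of the genome, in Malat1, took 0.498% to 0.667% of the tags in mESCs and 5.38% to 5.92% in mOPCs. The libraries of a cell type carry 1 library name in the deposited data, another one in each cell type, so that preparation and cell type cannot be told apart. The lines differed at nearly all genes. By edgeR's quasi-likelihood test with Benjamini-Hochberg adjustment over 18490 tested genes, 91.0% were called different, 42.1% higher in mOPCs and 48.9% lower, with a median log2 fold change (mOPCs over mESCs) of -0.19. A call by itself therefore says little about a gene, and the levels carry the description. The lines were well apart in pluripotency genes. All 12 genes of that list were lower in mOPCs, and 7 of them, among them Pou5f1, Nanog and Zfp42, had 0 tags there.

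In mOPCs, 4 of the 8 factors were strongly transcribed, Olig2 at 425 ± 11.4 CPM, Myt1 at 367 ± 38.3, Olig1 at 97.3 ± 12.9 and Myrf at 79.9 ± 5.73 (SD, n = 3). The other 4, Nkx2-2, Nkx6-2, Zfp488 and St18, had between 0 and 5 tags in all among 91692553 tags. In mESCs only Myrf was above 2 CPM. Of the 8 factors 5 passed the filter on low counts. Olig2, Myt1, Olig1 and Myrf were called higher in mOPCs and Nkx6-2 lower, against the 42.1% and 48.9% over all tested genes. Nkx2-2, Zfp488 and St18 did not pass it.

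**Figure D1:**
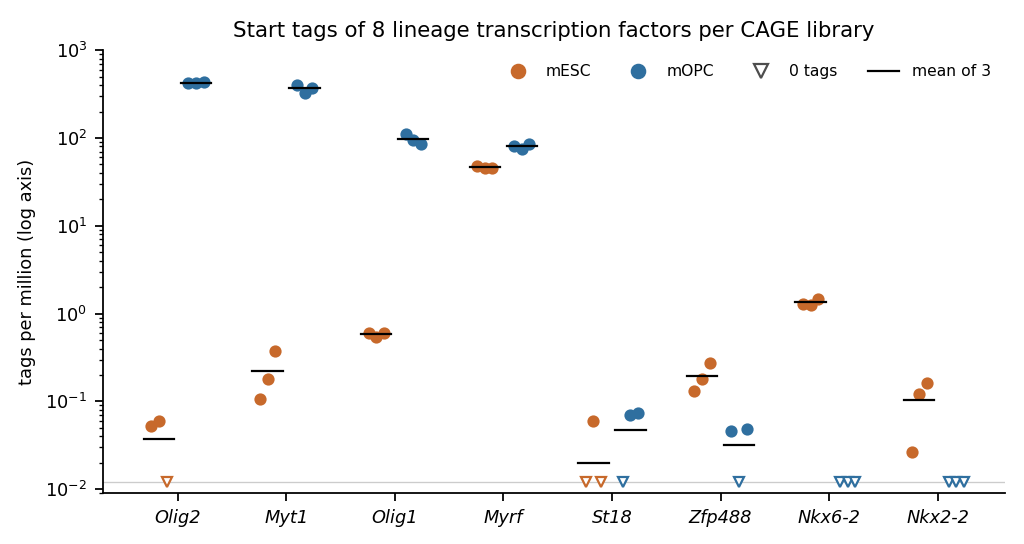
Level in CPM (log axis) of each factor in each library, with 1 point per library, mESC on the left and mOPC on the right of each gene, bars for the mean of 3 libraries and open triangles for 0 tags. Olig2, Myt1 and Olig1 are apart between the lines by over 2 powers of 10, Myrf is transcribed in both, and the mOPC points of the other 4 genes lie under 0.1 CPM or at 0.

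Olig2 (chr16:91225457-91228677, plus strand, mm10) had 9184, 12054 and 17932 tags in the mOPC libraries, or 419, 418 and 438 CPM. In the mESC libraries it had 2, 1 and 0 tags. The groups did not overlap, and the 3 mESC tags in all are no more than the floor. The ratio of the pooled tags was 10391, with a 95% exact binomial interval of 3555 to 50389 that covers counting error only. The log2 fold change was 13.15 (SE 0.19, adjusted p = 3.4e-51, edgeR), above that of 99.8% of the tested genes.

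Transcription of Olig2 began in a very narrow stretch. The middle 80% of its promoter tags lay within 5 or 6 bp in each mOPC library, and 1 position, base 91225571, took 47.8 ± 0.828% (SD, n = 3). It lies 114 bases downstream of the GENCODE 5′ end and 21 downstream of the RefSeq one. The sequence up to this start is shown because it holds a TATA motif. It is from RefSeq (GRCm38.p6, chr16:91225519-91225572, plus strand), and capitals mark the 3 strongest start positions.
Olig2: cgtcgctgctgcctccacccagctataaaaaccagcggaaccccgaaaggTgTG
The motif TATAAA begins 29 bases before the strongest start, in the range where TATA boxes are known to lie. It occurs, on either strand, in 13.6% of 32851 RefSeq promoters of 300 bases. The same 300 bases around the RefSeq start have a GC content of 65.0% and 25 CpG, where the median promoter has 52.7% and 7. They hold no E-box (CANNTG), the motif of basic helix-loop-helix proteins, which 72.3% of promoters hold. Of the 8 factors 5 have a promoter in this table, and TATAAA was found in no other of them.

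Olig1 (chr16:91269772-91271933, plus strand), the neighbour of Olig2, had 2445, 2712 and 3537 tags in mOPCs (112, 94.0 and 86.4 CPM) and 23, 9 and 11 in mESCs (0.607, 0.540 and 0.597 CPM). The groups were far apart, and the mESC tags, though few, were above the floor in every library. The log2 fold change was 7.32 (SE 0.15, adjusted p = 4.9e-44, edgeR). Both lines used the same main start, base 91269768, which is 4 bases upstream of the annotated 5′ end. Its share was 49.8 ± 3.16% in mOPCs and, over far fewer tags, 57.7 ± 11.0% in mESCs (SD, n = 3). A weaker group of starts lay about the bases 102 and 106 downstream of the 5′ end, so that the middle 80% of the tags spanned 151 to 157 bp, where Olig2 needed 6 at most.

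Myt1 (chr2:181763332-181827797, plus strand) had 8888, 9484 and 14983 tags in mOPCs (405, 329 and 366 CPM). It had 4, 3 and 7 tags in mESCs. The log2 fold change was 10.83 (SE 0.18, adjusted p = 7.1e-46, edgeR). Myt1 was thus nearly as strongly transcribed in mOPCs as Olig2, and the libraries of the 2 genes did not overlap. The annotated 5′ ends of Myt1 form 7 promoter regions, and 1 of them carried the gene. This region, chr2:181766529-181768012, held 8542, 9109 and 14453 tags in mOPCs, 96.2 ± 0.225% of all tags of Myt1 (SD, n = 3), and 0 in every mESC library. Over 23609 regions tested, where 89.7% were called, 43.2% higher and 46.5% lower, its log2 fold change was 16.21 (SE 0.26, adjusted p = 2.1e-80, edgeR), a value that depends on the prior count since mESCs had no tags. The most upstream region took 0.268 ± 0.00711% of the tags in mOPCs, yet it held all 14 tags seen in mESCs. Its level was 0.983 CPM in mOPCs against 0.222 in mESCs (log2 fold change 2.25, SE 0.40, adjusted p = 2.0e-07, edgeR). The region that carried Myt1 in mOPCs was therefore without tags in mESCs, while the most upstream region had tags in both lines. The 14 mESC tags, near the floor in each library, are too few to name a main start there. Of the other regions, the fifth was the strongest, with 2.06 ± 0.180% of the tags.

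Starts of Myt1 were spread more than those of Olig2. The strongest base, 181767015, took 20.2 ± 0.629% of the tags of Myt1, and the middle 80% of the region's tags spanned 187 to 275 bp. The stretch with the 3 strongest starts, in capitals, is shown beside that of Olig2 for its different make-up (RefSeq, GRCm38.p6, chr2:181766965-181767057, plus strand).
Myt1: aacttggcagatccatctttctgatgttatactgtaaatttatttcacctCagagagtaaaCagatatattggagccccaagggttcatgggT
The 300 bases around this RefSeq start have a GC content of 39.3% and 1 CpG, both below the median promoter. They hold 2 E-boxes and 3 CCAAT motifs, on either strand, and no TATAAA.

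**Figure D2:**
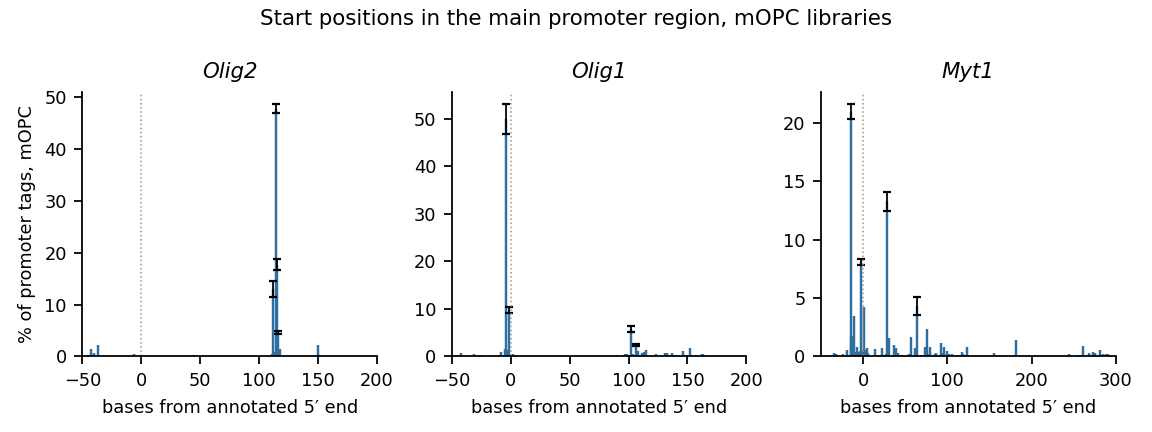
Share of the tags of the main promoter region (percent, mean of 3 mOPC libraries, with SD bars at the 4 strongest bases) by distance in bases from the first annotated 5′ end of the region, which is the dotted line. Olig2 starts within a few bases at 114 downstream, Olig1 at 4 upstream with a weaker group past 100 downstream, and Myt1 over many positions.

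Myrf (chr19:10208272-10240748, minus strand) was the one factor that both lines transcribed at a substantial level. It had 80.2, 74.1 and 85.5 CPM in mOPCs (1759, 2136 and 3500 tags) and 47.5, 46.0 and 46.0 CPM in mESCs (1799, 766 and 848 tags). The groups did not overlap, but the mOPC level was only 1.72 times that of mESCs. The log2 fold change was 0.76 (SE 0.087, adjusted p = 1.1e-11, edgeR), above that of 66.4% of the tested genes. Myrf is known to be expressed outside the nervous system too, so that its tags alone do not mark the lineage.

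The 2 lines used the same Myrf promoter but not the same bases in it. The region around the upstream 5′ ends took nearly everything, 99.8 ± 0.186% in mESCs and 99.9 ± 0.0404% in mOPCs (SD, n = 3). In mESCs, starts upstream of the annotated 5′ end made up 45.9%, 45.6% and 47.8% of the tags. In mOPCs they made up 19.4%, 21.4% and 20.2%. The median start lay 2 or 3 bases downstream of the 5′ end in mESC libraries and 26 bases downstream in every mOPC library. The strongest base was 10240769 in mESCs, 21 bases upstream of the 5′ end, with 10.3 ± 0.741% against 2.75 ± 0.351% in mOPCs. In mOPCs it was 10240721, 27 bases downstream, with 17.8 ± 0.887% against 7.45 ± 0.893% in mESCs. Each of these shares separated the lines without overlap. A two-sided exact permutation test of the upstream share gave p = 0.1, the smallest that 3 libraries against 3 allow.

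**Figure D3:**
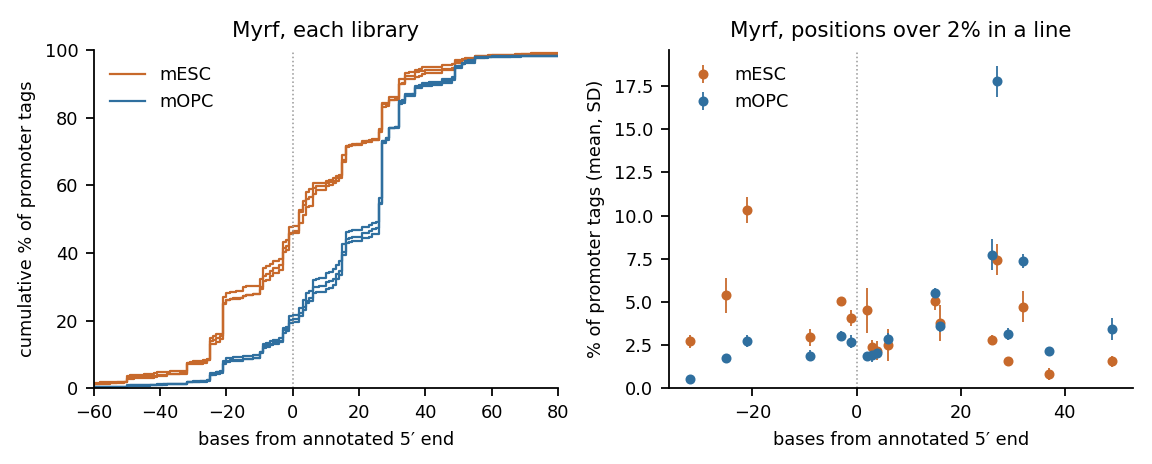
Starts in the main promoter region of Myrf by distance in bases from the annotated 5′ end. On the left, the cumulative percent of tags in each of the 6 libraries, where the 3 mOPC lines run to the right of the 3 mESC lines; on the right, the mean percent with SD of the positions that held at least 2% in either cell type, with mESC highest at 21 bases upstream and mOPC at 27 bases downstream.

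Nkx6-2 (chr7:139579376-139582797, minus strand), a homeodomain protein of ventral progenitors and of maturing oligodendrocytes, had the opposite pattern. It had 49, 21 and 27 tags in mESCs (1.29, 1.26 and 1.47 CPM) and 0 in all mOPC libraries. It was lower in mOPCs (adjusted p = 1.6e-15, edgeR), by 40.6-fold if the floor of 3 tags is put for the pooled mOPC libraries. The 95% exact binomial interval of the pooled tags, counting error only, began at 32.4-fold. Nkx6-2 had no tag on its strand anywhere in the gene in mOPCs, and 5 tags on the opposite strand. Its mESC tags were spread over 36 positions in a CpG-rich promoter of 66.7% GC and 32 CpG. The sequence is shown with its 3 strongest starts in capitals (RefSeq, GRCm38.p6, chr7:139582798-139582886, minus strand).
Nkx6-2: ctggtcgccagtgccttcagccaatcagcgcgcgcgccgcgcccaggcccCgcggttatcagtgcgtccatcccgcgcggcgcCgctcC

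Nkx2-2 (chr2:147177546-147194243, minus strand), which is known from ventral progenitors and from OPCs on their way to differentiation, had 1, 2 and 3 tags in mESCs and 0 in each mOPC library. A count of 0 among the pooled mOPC tags allows up to 0.0327 CPM, counting error only. Zfp488 (chr14:33967070-33978764, minus strand) had 5, 3 and 5 tags in mESCs and 1, 0 and 2 in mOPCs. The pooled ratio of mOPCs to mESCs was 0.184 (95% exact binomial interval 0.0336 to 0.668). St18 (chr1:6487231-6860940, plus strand) had 0, 1 and 0 tags in mESCs and 0, 2 and 3 in mOPCs over its 8 promoter regions. All 3 genes were close to the detection limit in both lines. Tested without the filter on low counts, Nkx2-2 and Zfp488 were lower in mOPCs (adjusted p = 0.020 and 0.024), and St18 did not pass the threshold (adjusted p = 0.29, edgeR). The share of all genes called lower without the filter is not given here.

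Tags inside these 3 genes but away from their 5′ ends ran the other way. St18 had 30, 29 and 49 such tags in mOPCs and 6, 5 and 1 in mESCs. Of its 108 in mOPCs, 107 were intronic, and they fell on 104 positions with at most 2 tags at any of them. Zfp488 had 11, 20 and 24 in mOPCs, 53 of 55 of them intronic, and 0 in mESCs. Nkx2-2 had 11, 22 and 26 in mOPCs, all 59 intronic, and 9, 4 and 4 in mESCs. When all tags inside the gene were counted in place of those near 5′ ends, the 3 genes were called higher in mOPCs, with log2 fold changes of 2.76 for St18, 4.98 for Zfp488 and 1.17 for Nkx2-2 (adjusted p = 7.0e-10, 2.1e-09 and 0.0045, edgeR). Their levels stayed under 1.4 CPM. Over all genes, too, the windows around annotated 5′ ends held fewer of the tags in mOPCs (80.3% to 80.8%) than in mESCs (87.6% to 88.1%). The part of this difference in the 3 calls was not tested. The share of all genes called higher with gene bodies is not given here, so that the 3 calls by themselves say little. Groups of mOPC tags also lay upstream of 2 of them on the same strand. One of 206 tags (2.14 ± 0.594 CPM; 0 in mESCs) lay 18142 bases upstream of Zfp488, inside Gm30083. One of 121 tags (1.32 ± 0.146 CPM; 0 in mESCs) lay 20343 bases upstream of St18. Whether RNAs from these starts run into Zfp488 or St18 was not tested.

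The windows of the genes differ in length, from 1001 bp for Olig1 and Olig2 to several regions for Myt1 and St18. Over an equal length, within 100 bp of the strongest position, the mOPC levels were 387 ± 9.96 CPM for Olig2, 288 ± 23.2 for Myt1, 79.6 ± 5.62 for Myrf and 67.3 ± 9.81 for Olig1 (SD, n = 3). Olig2 and Myt1 were apart from each other and from the rest. Myrf and Olig1 overlapped in their ranges (73.8 to 85.1 and 57.2 to 76.9 CPM), and their order was the reverse of that over the full windows, so that the 2 genes cannot be ordered. In mESCs, Myrf was followed at a distance by Nkx6-2 and Olig1. The ranges of neighbouring genes overlapped among the remaining 5, all at or under 0.380 CPM.

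In the 44.3 kb between the 5′ ends of Olig2 and Olig1, mOPC tags lay at many points toward each gene, and mESC tags at almost none. The bins of 1 kb that begin 23 to 29 kb downstream of the 5′ end of Olig2 held no mOPC tags on either strand. Beyond the annotated 5′ ends, the strongest group of starts between -10 and 10 kb of either gene lay outside this interval. It was 2342 bases upstream of Olig2, on its strand, with 22.4 ± 2.74 CPM in mOPCs and 1 tag in mESCs. On the opposite strand, the strongest lay 3722 bases upstream of Olig1 at 11.9 ± 0.715 CPM. Within the windows of the genes, opposite-strand tags in mOPCs numbered 2.57 ± 0.330 per 100 sense tags for Olig2, 3.31 ± 0.367 for Olig1, 0.809 ± 0.114 for Myt1 and 0.0786 ± 0.0445 for Myrf (SD, n = 3).

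**Figure D4:**
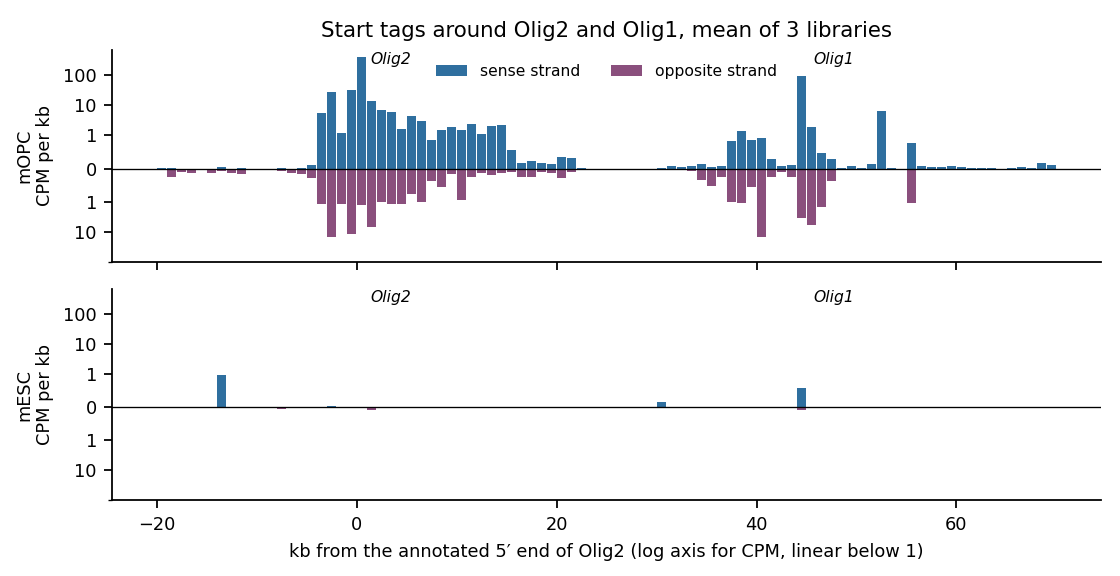
Level in CPM in bins of 1 kb by distance in kb from the annotated 5′ end of Olig2, mean of 3 libraries, mOPC above and mESC below, with tags on the strand of both genes up and those on the opposite strand down (log axis, linear below 1 CPM). The mOPC bins rise at both genes and are filled over many kb around them, while the mESC bins are almost empty.

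Relatives of the 8 factors were low in both lines and nearly silent in mOPCs. Their summed level was 1.27 to 1.84 CPM in mOPCs and 11.1 to 12.1 CPM in mESCs. Of 12 genes of the same families, among them Olig3, the other Nkx2 and Nkx6 genes, Myrfl and Myt1l, 7 had 0 mOPC tags and none reached 2 CPM. Among 21951 protein-coding genes, those with 0 mOPC tags shared rank 15218 by mOPC level, so that 0 tags was not rare. Only 3 relatives could be tested, and 42.1% of all tested genes were called higher and 48.9% lower. Prdm8 was higher in mOPCs at 1.33 ± 0.385 CPM against 0.105 ± 0.0666, and Nkx6-3 and Nkx2-9 were lower, at 5.65 ± 0.315 and 5.19 ± 0.610 CPM in mESCs and 0 in mOPCs (SD, n = 3). With windows of 100 bp, Prdm8 was not tested.

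Other regulators of the lineage were mostly higher in mOPCs, 29 of 36 tested, with 5 lower and 2 not called. Over all tested genes, 42.1% were called higher and 48.9% lower. The median log2 fold change was 1.77, beside -0.19 over all tested genes. Sox10, which acts with Olig2 and Myrf and directs myelin genes, had 337 ± 8.42 CPM in mOPCs and 0.810 ± 0.131 in mESCs. Sox6, which holds precursors undifferentiated, had 893 ± 71.1 and 0.804 ± 0.0207 CPM, more tags in mOPCs than any of the 8 factors. Egr1, an immediate early gene, had 737 ± 179 CPM in mOPCs and Tcf4, a partner of basic helix-loop-helix proteins, 291 ± 11.4. Klf9, a thyroid hormone target, was lower, with 145 ± 7.90 CPM in mOPCs and 772 ± 69.8 in mESCs. So were the Notch target Hes1 (9.95 ± 1.02 against 72.3 ± 2.86), Id4, an inhibitor of differentiation (0.967 ± 0.0848 against 8.62 ± 0.862), and Etv5 (75.3 ± 5.52 against 90.4 ± 4.42), whose call was lost without the filter on low counts (adjusted p = 0.14, edgeR).

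Genes that pattern the ventral neural tube, where the lineage originates, were split, with 5 higher and 6 lower of 11 tested (median log2 fold change -3.64). This split is near the 42.1% higher and 48.9% lower over all tested genes. Gli3, an effector of hedgehog signalling, had 43.7 ± 1.39 CPM in mOPCs and 21.1 ± 0.828 in mESCs. Gli1 and Gli2, which transmit the hedgehog signal, were lower, at 0.682 ± 0.157 and 0.849 ± 0.270 CPM in mOPCs against 18.9 ± 1.39 and 81.5 ± 3.70. Sox2 and Sox1 were lower too, Sox2 at 23.3 ± 1.07 against 287 ± 23.8 CPM and Sox1 at 0 against 3.52 ± 0.399. Irx3, Sox3 and Neurog2 were higher, and reached 13.6 ± 0.174, 7.12 ± 1.03 and 3.99 ± 0.193 CPM in mOPCs. The homeodomain genes Dbx1 and Nkx6-1 had 0 mOPC tags, as did Foxa2 of the floor plate.

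The stage markers place the 8 factors in their setting. Of 16 markers of OPCs, 15 were higher in mOPCs and 1 lower, with a median log2 fold change of 8.81. The shares over all tested genes were 42.1% higher and 48.9% lower. Tnr, a matrix protein, had 1007 ± 57.9 CPM and 0 tags in mESCs, Ptprz1, a receptor phosphatase, 900 ± 39.9, and the matrix protein Bcan 584 ± 34.8 (SD, n = 3). Cspg4, named after its value was seen, had 576 ± 30.2 CPM in mOPCs against 0.710 ± 0.204 in mESCs. Pdgfra was also named after its value was seen, because the PDGF receptor defines OPCs. Pdgfra was called higher but reached only 8.33 ± 0.444 CPM against 5.51 ± 0.165 in mESCs (log2 fold change 0.57, adjusted p = 1.2e-04, edgeR). With windows of 100 bp its call was lost (log2 fold change 0.18, adjusted p = 0.22, edgeR). Cdo1 was lower, at 5.02 ± 0.624 against 9.10 ± 0.469 CPM.

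Of 15 markers of committed precursors and newly formed oligodendrocytes 14 were tested, 9 higher and 5 lower (median log2 fold change 2.34). Beside them, 42.1% of all tested genes were higher and 48.9% lower. Bcas1, which marks early oligodendrocytes, had 2515 ± 197 CPM, above all of the 8 factors, and 3.90 ± 0.235 in mESCs. Fyn, a kinase of differentiation, had 308 ± 8.13 CPM, the adhesion protein Nfasc 298 ± 13.6 and the calcium channel Itpr2 244 ± 28.0. Bmp4 was at 0 in mOPCs and 175 ± 24.2 CPM in mESCs. Cemip2, Rras2 and Casr were lower as well.

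Of 18 markers of myelinating cells 14 were tested, 9 higher, 4 lower and 1 not called (median log2 fold change 3.62). Again, 42.1% of all tested genes were higher and 48.9% lower. Ugt8a, an enzyme of myelin lipids, had 235 ± 28.4 CPM and Mbp, a main myelin protein, 183 ± 19.5. Cnp and Tspan2 had 61.9 ± 2.59 and 61.9 ± 7.90 CPM in mOPCs, against 10.5 ± 0.926 and 45.3 ± 7.38 in mESCs. Late markers were low or absent. Mobp had 0.173 ± 0.0711 CPM in mOPCs, below the 11.0 ± 0.489 of mESCs, and Apod, Trf and Aspa were lower too, the call of Apod being lost with basic transcripts only (adjusted p = 0.081, edgeR). Mal and Cldn11, not tested, had 0 mOPC tags.

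The factors themselves, by the stages they are known from, divide as follows in mOPCs. Those that act from the precursor onward (Olig1, Olig2, Myt1, with Sox10 and Sox6) were at 97.3 to 893 CPM. Those known for differentiation or maturation were at or near 0 at their annotated starts (Nkx6-2, Zfp488, St18), except Myrf at 79.9 CPM, which mESCs also transcribed. Nkx2-2, known from ventral progenitors and from OPCs on their way to differentiation, had 0 tags at its annotated starts. Counted over the whole gene, Nkx2-2, Zfp488 and St18 were higher in mOPCs than in mESCs, as given above, at levels under 1.4 CPM. The detected factors thus point to the lineage from the precursor onward. Myt1 and Sox6 are the ones known from precursors. Olig1 and Olig2 stay on through the lineage and Sox10 directs myelin genes, so that their tags do not separate precursors from later stages. Measured departures from the precursor stage were the low level of Pdgfra, although called higher, and the tags of Myrf, Bcas1 and Mbp. Among the other OPC markers, Cspg4 was at 576 CPM in mOPCs. Nkx2-2 is known from ventral progenitors and from OPCs near differentiation, so that its 0 tags were not read as a departure. In bulk RNA, few cells with much of an RNA and many cells with little of it cannot be told apart, so that the values do not show whether precursor and later factors were in the same cells.

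**Figure D5:**
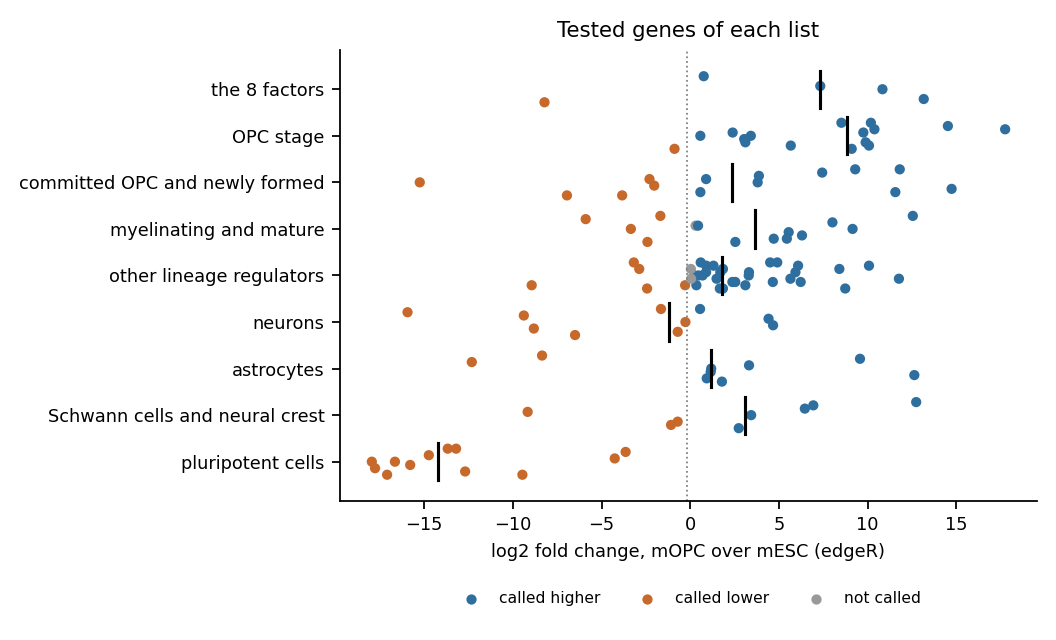
Log2 fold change (mOPC over mESC, edgeR) of every tested gene of each list, with the median as a bar and the median of all 18490 tested genes as a dotted line; points are coloured by call. The OPC list lies to the right except Cdo1, the 2 later lists hold genes on both sides, and all pluripotency genes lie to the left.

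Markers of other cell types were also present in part. Their calls stand beside the 42.1% higher and 48.9% lower over all tested genes. Of 10 tested neuronal genes 3 were higher and 7 lower in mOPCs, and their summed level was 292 to 334 CPM in mOPCs and 356 to 381 in mESCs. Map2 and Syt1 had 168 ± 13.4 and 88.3 ± 11.0 CPM in mOPCs and Elavl3 18.5 ± 2.35, while the defining Rbfox3, Snap25 and Stmn2 had 0 tags. Neurod1 was lower at 26.6 ± 2.98 against 43.1 ± 3.36 CPM, as was Elavl4 (log2 fold change -0.27), whose call was lost when any library but mESC library 1 was left out (-0.31 to -0.21). Of 9 tested astrocyte genes 7 were higher and 2 lower, with 365 to 391 CPM in sum in mOPCs and 143 to 157 in mESCs. S100b (206 ± 5.45 CPM), Slc1a3 (89.5 ± 6.81), Aldoc (44.6 ± 2.93) and Slc1a2 (14.0 ± 1.01) were among them, genes that oligodendrocyte precursors also express in part. Fgfr3 (12.4 ± 0.168 CPM against 1.16 ± 0.321 in mESCs) and Atp1b2 (10.6 ± 1.18 against 3.07 ± 0.326) were higher too. The defining Gfap was higher at 0.992 ± 0.161 against 0.516 ± 0.164 CPM (log2 fold change 0.93, adjusted p = 0.0059, edgeR). Its call was lost without mESC library 1 (log2 fold change 0.75, adjusted p = 0.066, edgeR) and after thinning, and its sign turned with gene bodies (-0.36). Aqp4, also defining, had 0 tags, and Gja1 and Aldh1l1 were lower.

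Of 8 tested Schwann cell and neural crest genes 5 were higher and 3 lower, where 42.1% and 48.9% of all tested genes were. Their sum was 182 to 191 CPM in mOPCs and 46.0 to 53.1 in mESCs. Pmp22 had 111 ± 4.18 CPM, Cdh19 31.3 ± 0.564, Tfap2a 12.5 ± 1.06 and Egr2 5.44 ± 1.28 in mOPCs. Ngfr, Prx and Foxd3 were lower. Of 10 microglial genes 8 could not be tested, 7 had 0 mOPC tags, and Tmem119 and P2ry12 were higher at 1.97 ± 0.444 and 0.872 ± 0.210 CPM, with a sum of 2.19 to 3.35 CPM over the list. Their part in the levels of the 8 factors was not tested.

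Among 14227 tested protein-coding genes, the genes nearest to each factor were found by the distance of log2(CPM + 1) over the 6 libraries. Olig2 was nearest to Lhfpl3 (distance 0.161) and Col6a1 (0.200), and Myt1 to Pcdhb16 (0.346) and Col6a1 (0.524). Olig1 was nearest to Irgm1 (0.358) and Rsad2 (0.398), Myrf to Naxe (0.118) and Cstf3 (0.164), and Nkx6-2 to Fitm1 (0.0649) and Hnf4a (0.0989). With 2 cell types this likeness says little more than that the levels in each are alike.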

How the data were processed

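CAGE tags were read from nuclear RNA of 3 mESC and 3 mOPC libraries. The authors deposited raw counts of tags for each position and strand of mm10 at which a tag begins, with no normalization. By the methods of the study, reads were trimmed to 21–27 nt and aligned uniquely with up to 2 mismatches with bowtie. The submitters' processing notes name CASAVA 1.8 and BWA 0.5.9 instead, and which aligner made the files is not settled here. Tags carry no molecular identifiers, so that intervals and floors cover counting error only.

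Tags were summed within 500 bp of the 5′ ends of GENCODE vM21 transcripts (the study used M14), a tag near several genes counting for each. Counts of 18490 genes and 23609 promoter regions were compared with edgeR 4.0.16 (quasi-likelihood, robust, TMM, filterByExpr) in R 4.3.3 over all 6 libraries, with calls at an adjusted p under 0.05. The SE is the fold change divided by the root of the F statistic. DESeq2 1.42.0, other scalings, filters and windows, whole gene bodies, thinning, a replicate block and each library left out served as alternatives. The scripts were tested on simulated data. Groups of starts away from 5′ ends of their own strand were positions with at least 5 tags, joined up to 20 bp, with at least 100 tags in all. Other steps used Python 3.11.15 (scipy 1.17.1, pandas 2.3.3 and numpy 2.4.6).

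Members and lists were chosen with earlier results of these data known. Genes named are the 8 factors, from each of the 12 lists the called genes with the highest level, up to 4 in each direction, for other cell types the 2 highest in mOPCs, family relatives at 1 CPM or more, and the 2 nearest genes of each tested factor. One gene of the lists is not reported here. A few absent or defining markers were named after their values were seen.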

Additional observations from a re-analysis of the deposited data

Results flagged for a closer look

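Outside the windows around annotated 5′ ends on the same strand, whose tags the gene comparisons count, groups of starts were picked by rule. A group had to lie near a factor, be above every mESC library and reach 5 CPM in mOPCs. Their direction is therefore the selection and not a result, and groups higher in mESCs could not be picked. One of those, 25501 bases upstream of Olig2 on the opposite strand, had 12.1 CPM in mESCs and 0.0711 in mOPCs. It also lay farther away than any picked group. How many groups were screened is not given here. The rule was met by 6 groups. Near Olig2, the largest lay 2342 bases upstream on its strand (chr16:91223047-91223165), with 478, 577 and 1039 tags in mOPCs, 2094 in all, and 1 tag in mESCs. One in the last exon of Olig2 and 1261 bases downstream of its 5′ end, had 614 tags in mOPCs and 0 in mESCs. Another, on the opposite strand 213 bases upstream, and so across from the window of Olig2, had 590 and 0. Near Olig1, 1091 tags lay on the opposite strand 3722 bases upstream of its 5′ end, and 512 on its own strand 8032 bases downstream, where Gm15966 is annotated on the other strand; both had 0 tags in mESCs. Inside Myt1, 762 tags lay on the opposite strand 1379 bases downstream of the first 5′ end, between the regions with and without mESC tags, and 0 in mESCs. Since preparation and cell type cannot be told apart, the values stand as descriptions of these libraries.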

How the results depend on the processing

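The log2 fold changes of the 5 tested factors kept their direction and call under all 18 alternatives, from 10.99 to 13.62 for Olig2, 10.29 to 13.02 for Myt1, 6.87 to 9.97 for Olig1, 0.70 to 1.00 for Myrf and -8.37 to -7.46 for Nkx6-2. The numbers of genes and regions called stayed within 1.5 times throughout. Among the factors, 7 were called higher when whole gene bodies were counted, and 3 lower without the filter on low counts, all 8 being tested in both cases. The same settings gave 2 family relatives higher and 5 lower, and 1 microglial gene lower with gene bodies. The shares of all genes called higher or lower under both settings are not given here, so that these counts are not read as results about the lists. Windows of 100 bp left 0 family relatives and 3 patterning genes called higher. Of the markers of committed precursors, 3 were called lower after thinning to the smallest library, and between 3 and 5 when 1 library was left out, the lowest without mESC library 1. With windows of 100 bp, the log2 fold change was -1.02 for Yy1, -0.88 for Rxrg and -0.044 for Pax6. With gene bodies it was -1.91 for Rxrg, 0.39 for Kif19a, 0.073 for Elavl4 and -0.36 for Gfap. Each of these had the other sign in the windows of 500 bp, and the cause was not tested. Within windows of 100 bp, the main region took 99.9% of the mOPC tags of Myrf and 98.6% of those of Myt1. Within 100 bp of the strongest position, levels were 387 CPM for Olig2, 288 for Myt1, 67.3 for Olig1 and 0 for St18 in mOPCs, and 1.15 for Nkx6-2 and 0 for Myt1 in mESCs. Same-numbered libraries did not deviate together (correlations 0.011, 0.061 and 0.014, and not every library correlated best with its own number). The numbers were therefore not taken as pairs. With the replicate number as a block 16833 genes were called, against 16832 without it. Depth limits the description of Nkx2-2, Zfp488 and St18, for which 3 tags over the pooled libraries correspond to 0.0411 CPM in mESCs and 0.0327 CPM in mOPCs.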
